A study of Drosophila melanogaster with 6 samples.

Results

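The ecdysone response was examined in Drosophila S2 cells through 10 genes, the receptor genes EcR and usp and 8 genes of the response to the hormone. These 8 are the early and delayed early genes br, Eip74EF, Eip75B, Eip78C, Hr3, Hr4 and Hr39 and the prepupal gene ftz-f1. A gene was followed through every probe set that the array annotation assigns to it alone. This gave 18 of the 18769 probe sets tested, for 8 of the 10 genes, where the whole array has 11983 genes with such a probe set. No probe set is assigned to Eip74EF, which encodes an ETS domain factor, or to Eip75B, which encodes a heme-binding nuclear receptor, so both were not analysed here. The study treated S2 cells, an established line from Drosophila embryos with features of blood cells, with protocatechuic aldehyde (PA), the phenolic aldehyde isolated from Sasa senanensis leaves. The PA cells received 0.1 mM PA for 2 h (3 samples) and the vehicle cells received vehicle, whose make-up is not given for the arrays (3 samples), with 1 Affymetrix Drosophila genome 2.0 array per sample. Both groups are the same cell line, grown in Schneider's medium with insulin and 10% fetal bovine serum, and no ecdysteroid is named among the additions. The sources used here do not say whether samples of a group came from separate cultures, so the p-values below describe the spread among these 6 samples and nothing wider, and that spread may be technical.

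Ecdysone is the steroid hormone that times the molts and metamorphosis of insects. It binds a heterodimer of the nuclear receptors EcR and Ultraspiracle (usp), which switches on a small set of early genes that mostly encode transcription factors. These early factors then act on late genes and on each other, and a second group of nuclear receptors (Hr3, Hr4, ftz-f1) carries the response from the larval to the prepupal stage. Blood cells and lines derived from them are known to respond to the hormone.

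Values are MAS5 signals, the linear intensity of a probe set after the authors scaled each array, and they compare arrays within a probe set, not genes with each other. On the PA arrays the 75th percentile of signal lay at 492 to 495, and on the vehicle arrays at 515 to 534. The 10 hemocyte markers checked (srp, Hml, NimC1, eater, crq, Pxn, vkg, Col4a1, ush and Ppn) all lay above the median of the mean log2 signal, and their summed signal was 35904 to 38282 on the PA arrays and 35449 to 36919 on the vehicle arrays. Of these markers, Hml and NimC1 were called higher with PA, and srp and Ppn lower, with log2 fold changes of 0.14, 0.15, -0.15 and -0.31. After quantile normalization, srp alone of the 4 was called. Of all probe sets, 2.29% were called higher and 2.82% lower, with more calls among bright ones. In deciles 8, 9 and 10 of the mean log2 signal, 1.81%, 3.09% and 16.7% were called higher. In the same deciles, 9.54%, 11.3% and 4.85% were called lower. The marker calls are therefore read as no more than a description. The 6 salivary gland glue genes, Sgs1, Sgs3, Sgs4, Sgs5, Sgs7 and Sgs8, which late larval glands express under ecdysone, all lay below the median of the mean log2 signal. Their summed signal was 32.4 to 48.2 with PA and 30.3 to 59.5 with vehicle. A probe set counts as called where limma gave an adjusted p below 0.05, after Benjamini-Hochberg adjustment across all probe sets tested, and every log2 fold change is PA minus vehicle. None of the glue genes was called, nor any of the 3 fat body, 3 neuron, 2 muscle and 3 germline markers measured, of which vas alone had an unadjusted p under 0.05. Of these other markers, 1 of fat body, 2 of neuron, 0 of muscle and 1 of germline lay above the median of the mean log2 signal. The brightest neuron marker had a mean signal of 177 and the brightest germline marker 96.5, where the dimmest hemocyte marker had 152. These signals come from different probe sets, so they do not rank the genes by expression.

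Of the 18 probe sets, 1 was lower with PA, a probe set of Hr39, and 0 were higher. Over the whole array 2.82% of probe sets were called lower and 2.29% higher, 5.1% in all. That split leans on the scaling, with 529 lower and 429 higher as deposited, 350 and 58 with arrays centred on their median, and 211 and 988 with arrays centred on their 75th percentile. Precision is limited by having 3 arrays a group, and it also differed with signal. The median standard error of the log2 fold change was 0.45 in decile 6 of the mean log2 signal and 0.04 in decile 10. At an unadjusted p under 0.05 from limma, 5 of the 18 were lower and 0 were higher, against 9.93% and 7.1% of all probe sets. These 5 come from 3 genes only (3 from Hr39, and 1 each from EcR and ftz-f1), and probe sets of a gene are not separate observations of PA. By the methods' t-test, 1 probe set was lower at p under 0.05 and 0 were higher, against 7.78% and 6.57% of all probe sets, and 0 passed the fold limits of the study as well (under 0.67 or over 1.5), which 1.23% and 1.89% of all probe sets did. All PA arrays lay below all vehicle arrays for 4 of the 18 (11.9% of all probe sets) and above them for 0 (9.61%), where the groups of 21.5% of all probe sets lay apart in either direction. The median log2 fold change of the 18 was 0.03, against -0.01 for all probe sets tested.

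**Figure D1:**
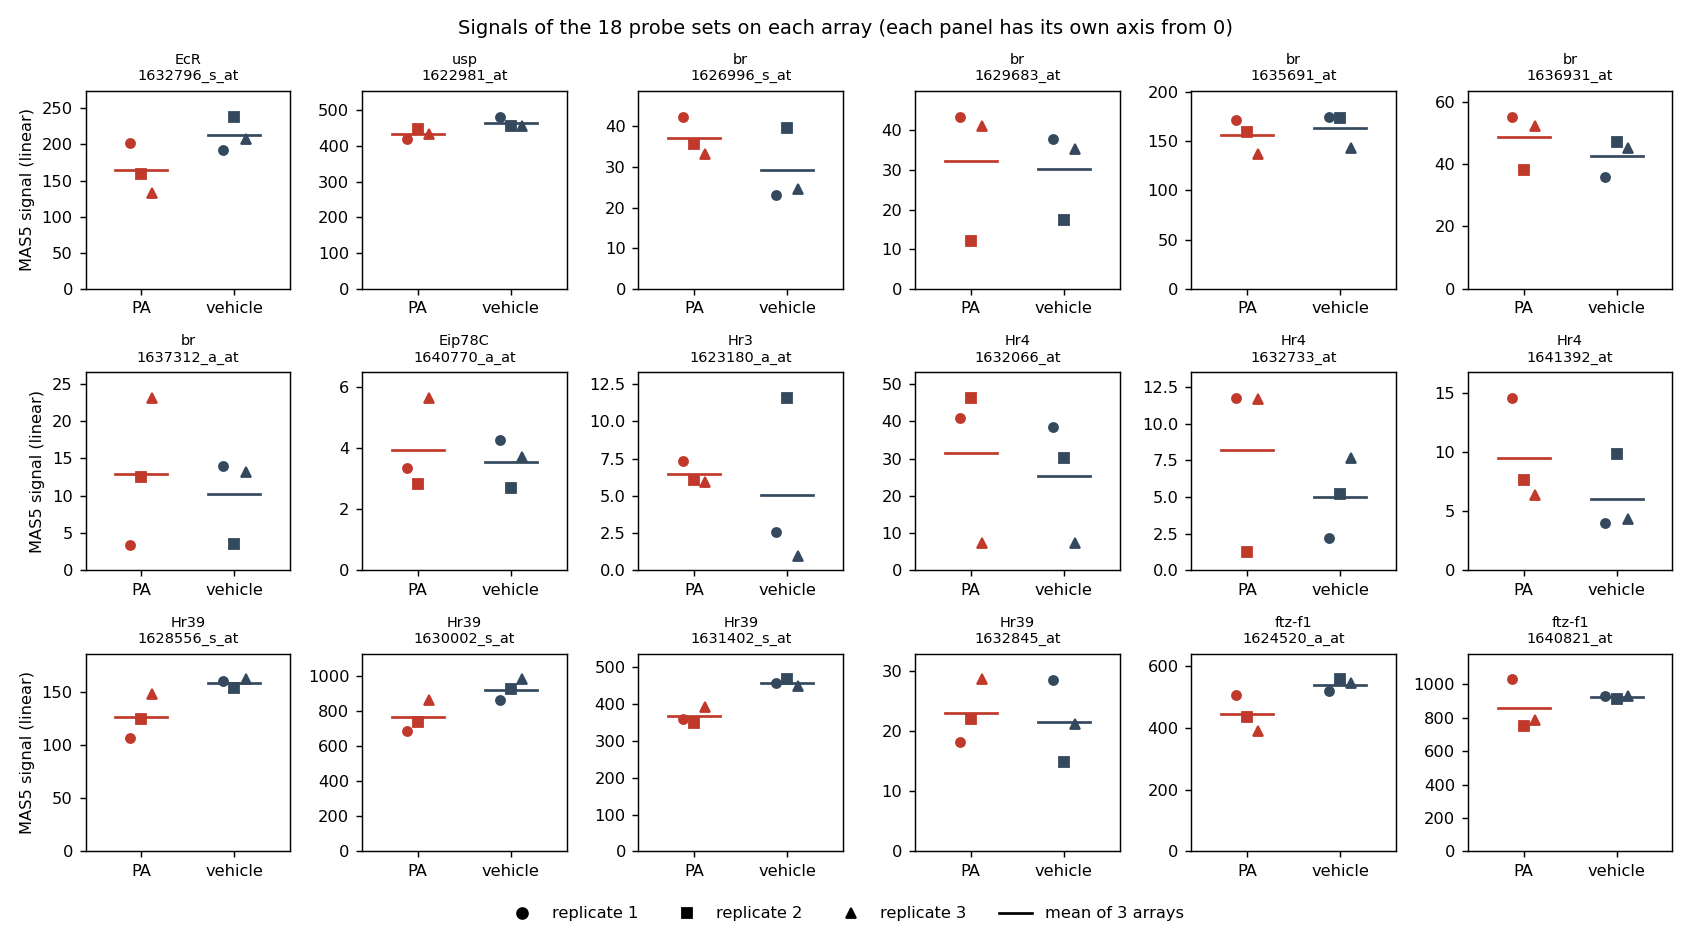
MAS5 signal (vertical axis, linear, from 0 in each panel) of each of the 18 probe sets on the 3 PA arrays and the 3 vehicle arrays, with a symbol for each replicate and a line at the group mean. The PA points lie below all vehicle points for usp, for Hr39 1628556_s_at and 1631402_s_at and for ftz-f1 1624520_a_at, and the groups overlap in the other 14 panels.

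Both receptor genes had lower mean signals with PA than with vehicle, and neither was called. The signal of EcR (probe set 1632796_s_at) was 202, 159.5 and 133 on the PA arrays, against 192, 238 and 208 on the vehicle arrays. PA replicate 1 lay within the vehicle range, while the other 2 PA arrays lay below it. The means were 165 ± 35.0 with PA and 213 ± 23.5 with vehicle (SD, n = 3 each), for a log2 fold change of -0.39 with a standard error (SE) of 0.15 (limma adjusted p = 0.166). The 95% confidence interval of -0.70 to -0.07 corresponds to a ratio between 0.616 and 0.95, before any allowance for the number of probe sets tested. Without PA replicate 1 the log2 fold change was -0.54 (adjusted p = 0.0539), and without PA replicate 3 it was -0.24 (adjusted p = 0.466).

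Its partner usp is the insect counterpart of the retinoid X receptor. The signal of usp (probe set 1622981_at) was 420.0, 447 and 434 on the PA arrays, against 481, 455 and 454 on the vehicle arrays. Each PA array was below each vehicle array, although the nearest PA and vehicle values were 447 and 454. The log2 fold change was -0.10 with an SE of 0.06 (limma adjusted p = 0.525), with a 95% confidence interval of -0.23 to 0.04. This interval holds ratios from 0.851 to 1.03, so a change of usp to 0.67 of its vehicle level, the fold limit of the study, lies outside it.

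br (Broad) encodes BTB zinc finger factors that are needed for the start of metamorphosis, and its 5 probe sets gave no call. On its brightest probe set, 1635691_at, br had signals of 171, 159 and 137 with PA, against 175, 173 and 143 with vehicle. The groups overlapped, and replicate 3 was the lowest array in both. The log2 fold change of this probe set was -0.07 (SE 0.13, limma adjusted p = 0.87), with a 95% confidence interval of -0.35 to 0.21, and it was 0.02 after quantile normalization. Of the other 4 probe sets of br, whose signals were at most 55.1, 1636931_at had 55.1, 38.1 and 52.3 with PA and 35.9, 47.0 and 45.0 with vehicle. Probe set 1626996_s_at had 42.3, 35.6 and 33.2 with PA and 23.2, 39.7 and 24.5 with vehicle. In both of these br probe sets the groups overlapped, with log2 fold changes of 0.18 (SE 0.30) and 0.38 (SE 0.38). Probe set 1629683_at of br had 43.5, 11.97 and 41.1 with PA and 37.9, 17.5 and 35.3 with vehicle, so that replicate 2 was lowest in both groups. On 1637312_a_at, the dimmest of the 5, br had 3.33, 12.5 and 23.1 with PA and 13.9, 3.56 and 13.2 with vehicle, a spread within each group far larger than the difference of the means. The adjusted p of the 5 probe sets of br was 0.71 to 0.986. A further probe set, 1625642_at, is annotated to CG11509, a name that RefSeq lists among the synonyms of br but whose own gene identifier is not in the gene table used. It was not counted among the 18, and had signals of 21.7, 13.4 and 3.59 with PA and 12.2, 14.9 and 18.7 with vehicle.

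Of the other early and delayed early genes, Eip78C, Hr3 and Hr4 had signals of at most 46.3 on all arrays, where the data cannot separate a change of several fold from none. Eip78C encodes an orphan nuclear receptor related to Eip75B. Its probe set 1640770_a_at had signals of 3.34, 2.83 and 5.63 with PA and 4.25, 2.69 and 3.72 with vehicle, and its log2 fold change was 0.11 with an SE of 0.83 (95% confidence interval -1.68 to 1.89). Hr3, a relative of the mammalian ROR receptors, activates ftz-f1 in the prepupa. Its signals on probe set 1623180_a_at were 7.37, 6.05 and 5.90 with PA and 2.58, 11.6 and 0.964 with vehicle. The PA values of Hr3 lay inside the vehicle range, and the log2 fold change of 1.06 had an SE of 0.99 and a 95% confidence interval of -1.06 to 3.19.

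Hr4, a nuclear receptor that represses early genes and acts with Hr3 on ftz-f1, has 3 probe sets, and none was called (limma adjusted p from 0.774 to 0.935, with 0 of the 3 at an unadjusted p under 0.05 and 0 by the methods' t-test). On 1632066_at its signals were 40.8, 46.3 and 7.38 with PA and 38.3, 30.0 and 7.21 with vehicle. Replicate 3 was low in both groups on this probe set, and the group ranges overlapped. The other 2 probe sets of Hr4, 1632733_at and 1641392_at, lay between 1.21 and 14.6. The log2 fold changes of the 3 were 0.25, 0.31 and 0.68, with SEs of 0.77, 1.04 and 0.82. Over the 10 probe sets under percentile 60 of the mean log2 signal (4 of br, 3 of Hr4, and those of Hr3, Eip78C and 1 of Hr39), the 95% confidence interval reached 0.64 to 2.24 to each side on the log2 scale. For the 8 brighter ones it reached 0.14 to 0.31.

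**Figure D2:**
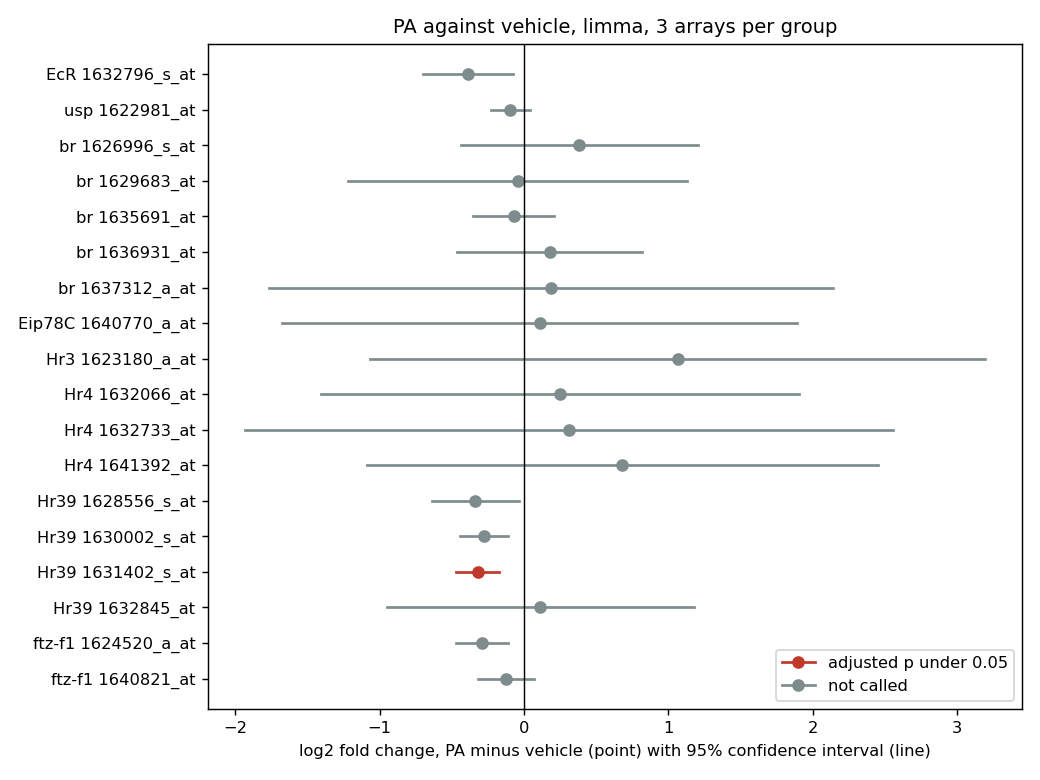
Log2 fold change, PA minus vehicle (horizontal axis), of each of the 18 probe sets with its 95% confidence interval from limma. The only called probe set, Hr39 1631402_s_at at -0.32, is drawn in red, and the intervals of Hr3, Hr4, Eip78C and the dim br probe sets reach far to both sides of 0.

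Hr39 was the member with a call. This gene encodes a nuclear receptor of the FTZ-F1 family that binds the same DNA sites as the ftz-f1 product and is induced by ecdysone. On probe set 1631402_s_at, Hr39 had signals of 359, 349 and 391 on the PA arrays, against 456, 466 and 449 on the vehicle arrays. Every PA array lay below every vehicle array, with a gap of 391 to 449 between the nearest arrays. Hr39 averaged 366 ± 21.9 with PA and 457 ± 8.48 with vehicle (SD, n = 3 each) and fell by 0.32 (log2, SE 0.07, limma adjusted p = 0.0155), a ratio of 0.8 with a 95% confidence interval of 0.722 to 0.886. For a single probe set the 2-sided exact permutation test gave p = 0.1, the smallest that 3 arrays against 3 allow, so that it cannot reach 0.05.

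The other bright probe sets of Hr39 had log2 fold changes of similar size and were not called. On 1630002_s_at, Hr39 had 686, 738 and 864 with PA, against 859.6, 923 and 979 with vehicle. PA replicate 3 reached just into the vehicle range, and the other 2 PA arrays lay below it. The log2 fold change of 1630002_s_at was -0.28 (SE 0.08, limma adjusted p = 0.0578). On 1628556_s_at, Hr39 had 107, 125 and 149 with PA, against 161, 154 and 162 with vehicle. The groups did not overlap, but the PA arrays differed widely, and the log2 fold change of -0.34 had an SE of 0.14 (adjusted p = 0.22). The fourth probe set, 1632845_at, was dim, with 18.2, 22.1 and 28.7 with PA and 28.6, 15.0 and 21.3 with vehicle. Its log2 fold change was 0.11 with an SE of 0.49, and its 95% confidence interval of -0.95 to 1.17 includes the changes of the other 3. With all 4 probe sets of Hr39 averaged on the log2 scale, the log2 fold change was -0.21 with an SE of 0.12 (limma adjusted p = 0.467). This average gives the dim 1632845_at, with its SE of 0.49, the same weight as each of the other 3.

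The call of Hr39 1631402_s_at was close to the threshold and depended on single arrays. The adjusted p was 0.0558 without PA replicate 1, 0.0684 without PA replicate 2, 0.0524 without vehicle replicate 1 and 0.0617 without vehicle replicate 2, with log2 fold changes of -0.37 to -0.29 over all 6 omissions. After quantile normalization Hr39 had a log2 fold change of -0.24 (adjusted p = 0.101), and with cyclic loess -0.25 (adjusted p = 0.0834). In limma without a trend of variance on signal its adjusted p was 0.348, and that model called none of the 18 and none of the pathway genes named further on.

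ftz-f1, which encodes the nuclear receptor that makes prepupal tissues competent to respond to the next pulse of ecdysone, had lower mean signals with PA on both probe sets, and neither was called. On 1624520_a_at, ftz-f1 had signals of 507, 435 and 391 with PA, against 520.0, 558 and 544 with vehicle. The PA arrays all lay below the vehicle arrays, PA replicate 1 by a small margin. The means were 445 ± 58.4 with PA and 541 ± 19.1 with vehicle (SD, n = 3 each), for a log2 fold change of -0.29 with an SE of 0.08 (limma adjusted p = 0.0687). On the brighter 1640821_at, ftz-f1 had 1028, 749.7 and 785 with PA, against 929.9, 913 and 928 with vehicle. PA replicate 1 was the highest of the 6 arrays and the other 2 PA arrays were the lowest. The log2 fold change of 1640821_at was -0.13 (SE 0.09, adjusted p = 0.568). Without PA replicate 1 both probe sets of ftz-f1 were called, with log2 fold changes of -0.39 (adjusted p = 0.0155) and -0.27 (adjusted p = 0.0231). Neither was called in any other omission of an array, where the adjusted p reached 0.233 for 1624520_a_at and 0.903 for 1640821_at. After quantile normalization their log2 fold changes were -0.20 (adjusted p = 0.312) and -0.06 (adjusted p = 0.848).

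Within the PA group the order of the arrays differed between members. On PA replicate 1, EcR and both probe sets of ftz-f1 had their highest PA signal. Hr39 had its lowest PA signal there on 1628556_s_at, 1630002_s_at and the dim 1632845_at. On PA replicate 3 this was turned round, with the lowest PA signal for EcR and for ftz-f1 on 1624520_a_at and the highest for all 4 probe sets of Hr39. The sources give no technical detail that sets these arrays apart, and the order of 3 arrays was not tested.

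All 8 brighter probe sets, those of EcR, usp and ftz-f1, 3 of Hr39 and 1 of br, had a log2 fold change below 0, from -0.39 to -0.07 with a median of -0.28. They lie in deciles 7 to 9 of the mean log2 signal, where most probe sets of the array were also lower with PA. Of the 5631 probe sets in these deciles, 69.8% had a log2 fold change below 0, with a median of -0.07, and 7.69% were called lower. After quantile normalization 52.3% of them and 7 of the 8 members were below 0, with medians of -0.01 and -0.21. How much of the lower signals of EcR, Hr39 and ftz-f1 goes with this shift of the whole signal range was not tested. The split into 8 brighter and 10 dimmer probe sets was made after their values were seen.

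**Figure D3:**
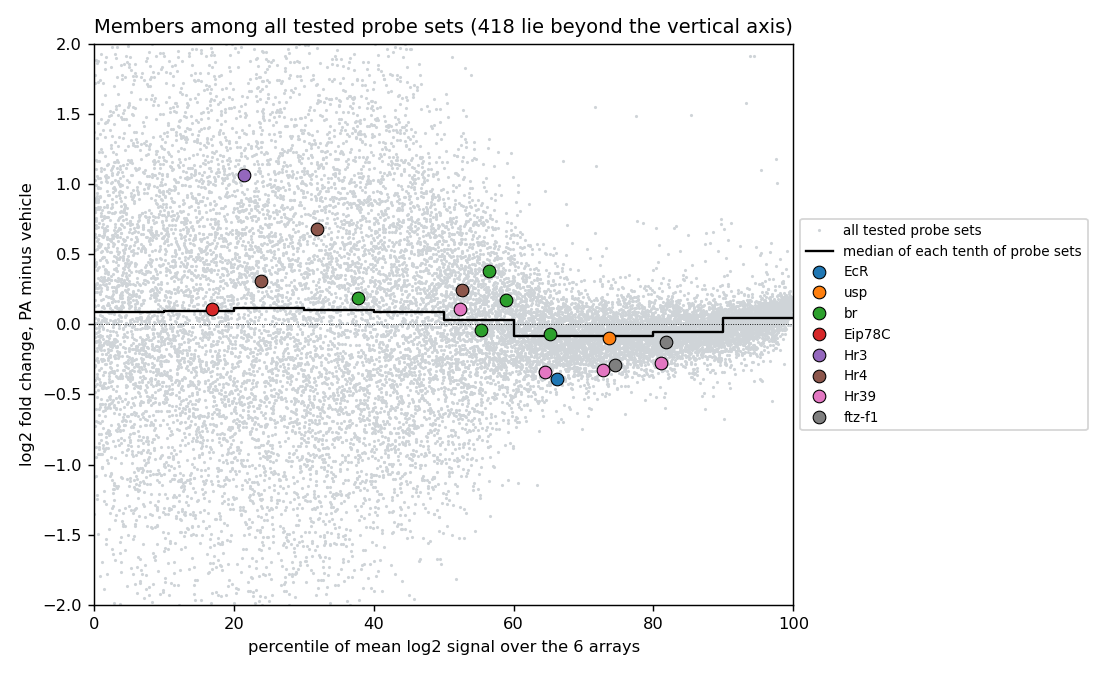
Log2 fold change, PA minus vehicle (vertical axis), against the percentile of the mean log2 signal (horizontal axis) for all tested probe sets (grey) and the 18 members (coloured by gene), with the median of each decile of the probe sets as a black line. That line lies below 0 between percentiles 60 and 90, where the probe sets of EcR, usp, ftz-f1, 3 of Hr39 and 1 of br lie close to it or below it, with the br probe set, at -0.07, just above the decile median of -0.08.

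**Figure D4:**
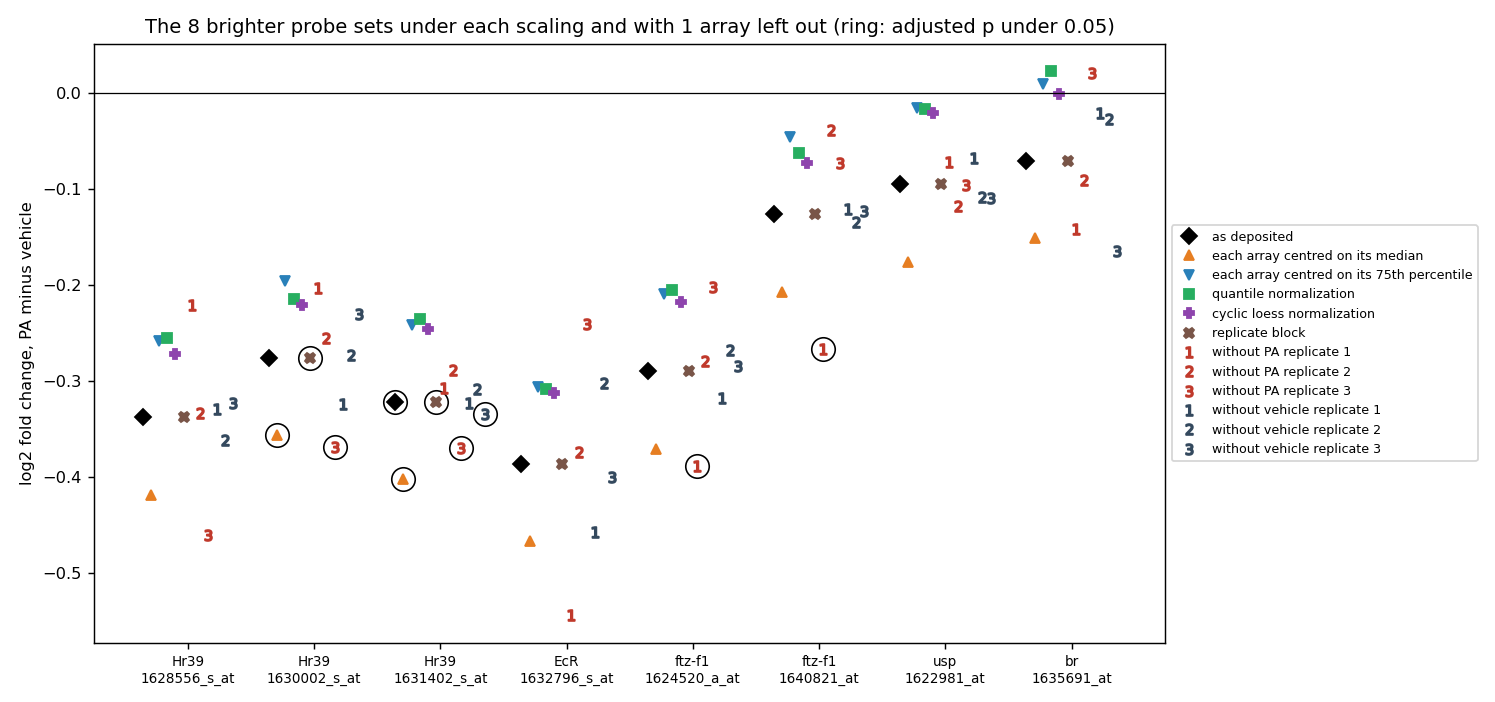
Log2 fold change, PA minus vehicle (vertical axis), of the 8 brighter probe sets as deposited, under 4 other scalings of the arrays, with a replicate block and with each array left out, where a ring marks an adjusted p under 0.05. Hr39, EcR, usp and both probe sets of ftz-f1 stay below 0 throughout, while br 1635691_at reaches values above 0.

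The genes around the receptor were followed through a list of 53 genes. It covers hormone synthesis, transport, cofactors, other inducible genes and 3 genes of the juvenile hormone receptor and its target. Of the 53, 47 have a probe set (the brightest stands for a gene). With PA, 3 of the 47 were higher and 4 were lower, with a median log2 fold change of -0.06, where 2.29% of all probe sets were called higher and 2.82% lower. Calls were more frequent among bright probe sets, in which all 7 of these genes lie, with 9.54%, 11.3% and 4.85% called lower and 1.81%, 3.09% and 16.7% called higher in deciles 8, 9 and 10 of the mean log2 signal, so the list's counts are read as no more than a description. The 8 genes of ecdysteroid synthesis (nvd, spo, spok, sro, phtm, dib, sad and shd), which are active in the prothoracic gland and its target tissues, had mean signals of 1.26 to 23.9 and none was called. At an unadjusted p under 0.05 there was 1, nvd, and by the methods' t-test 0. nvd had an adjusted p of 0.207 as deposited and 0.049 without PA replicate 3, on very low signals that averaged 6.54 with PA and 0.623 with vehicle. Over 17 alternative processings its log2 fold change ranged from 0.12 to 3.74, with 1 call. Oatp74D, the importer that brings ecdysone into cells, had signals of 2199, 2168 and 2165 with PA, against 2475, 2403 and 2344 with vehicle. Its groups did not overlap, and Oatp74D fell by 0.14 (log2, SE 0.04, limma adjusted p = 0.0459). The size was similar after quantile normalization (-0.14, adjusted p = 0.0614) and over the omissions of an array (-0.16 to -0.12), where the adjusted p stayed under 0.05 only without vehicle replicate 3. With arrays centred on their 75th percentile it was -0.06 (adjusted p = 0.493). Eo, listed with the uptake, export and turnover genes, was not called. Its log2 fold change was -2.34 (limma adjusted p = 0.237), and -0.21 with 64 added before the log2.

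Of 12 measured cofactors of the receptor, 2 were lower and 1 was higher, and all 12 lie at percentile 65.4 of the mean log2 signal or above, in the range with the more frequent calls. E(bx), the large subunit of the NURF chromatin remodeller, which binds EcR, had signals of 477, 476 and 462 with PA, against 623, 594 and 576 with vehicle. E(bx) fell by 0.34 (log2, SE 0.06, adjusted p = 0.00465), and the call held after quantile normalization (adjusted p = 0.0228) and in each omission of an array. The corepressor gene Smr fell by 0.24 (log2, SE 0.06, adjusted p = 0.028), with -0.20 after quantile normalization (adjusted p = 0.0967) and -0.30 to -0.20 over the omissions of an array, where the adjusted p stayed under 0.05 only without PA replicate 1. With the 75th percentile centring Smr had -0.16 (adjusted p = 0.165). The chaperone gene Hsc70-4 had a log2 fold change of 0.12 with an SE of 0.03 (adjusted p = 0.0434), which turned to -0.03 after quantile normalization and -0.01 with cyclic loess. Its call was lost in each omission of an array except that of vehicle replicate 3. The cofactor gene bon was not called, with a log2 fold change of -0.17 (limma adjusted p = 0.0561). After quantile normalization bon had -0.12 (adjusted p = 0.216). Among the upper 50% and 75% of mean signal its adjusted p was 0.0329 and 0.0436.

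Of 19 measured inducible genes outside the members, ImpL2 and Dronc were higher and Eip63E was lower, against 2.29% higher and 2.82% lower over all probe sets. ImpL2, which lies in decile 10, encodes a secreted protein that binds insulin-like peptides and was found as an ecdysone-inducible gene of imaginal discs. Its signals were 14686, 14213 and 14967 with PA, against 10089, 10022 and 10467 with vehicle, so that the groups lay far apart relative to their spread. ImpL2 averaged 14622 ± 381 with PA and 10193 ± 240.2 with vehicle (SD, n = 3 each), for a log2 fold change of 0.52 with an SE of 0.03 (limma adjusted p = 9.31e-07), and 0.39 after quantile normalization. Dronc, the initiator caspase gene, had 1563, 1411 and 1543 with PA, against 1201, 1262 and 1328 with vehicle. Its log2 fold change was 0.25 with an SE of 0.05 (adjusted p = 0.0144), and 0.23, 0.23 and 0.22 without PA replicate 1, PA replicate 3 and vehicle replicate 1 (adjusted p = 0.0648, 0.0703 and 0.0608). With arrays centred on their median Dronc had 0.17 (adjusted p = 0.365). Eip63E, a gene for a cyclin-dependent kinase relative, fell by 0.19 (log2, SE 0.05, adjusted p = 0.0377), with -0.17 after quantile normalization (adjusted p = 0.0858) and -0.22 to -0.14 over the omissions of an array, where the adjusted p stayed under 0.05 only without vehicle replicate 3. With the 75th percentile centring Eip63E had -0.11 (adjusted p = 0.311). Sox14, an early ecdysone target, had signals that averaged 547 with PA and 507 with vehicle (limma adjusted p = 0.454). None of the 3 juvenile hormone genes Met, gce and Kr-h1 was called, with 0 at an unadjusted p under 0.05 and 1, Kr-h1, by the methods' t-test.

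The genes whose pattern over the 6 arrays was most like Hr39 1631402_s_at were sought among the 7958 probe sets that have 1 gene and are brighter than the median probe set. Likeness was the root mean square difference between log2 signals centred on the vehicle mean. The 3 nearest genes were Sec10 (0.03), a subunit of the exocyst, CG13088 (0.03) and Spc105R (0.04), a kinetochore protein. Sec10 had 444, 449 and 476 with PA, against 564, 579.6 and 539 with vehicle.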

How the data were processed

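The authors hybridized RNA of 6 S2 cell samples to Affymetrix Drosophila genome 2.0 arrays and deposited MAS5 signals, a linear intensity for each probe set; the submitters' processing notes name MAS5 and no version. The mean after trimming 2% from each end was checked to be 500.01 on each array. Groups came from the sample titles. Log2 signals (no offset) of 18769 probe sets, without 183 controls, were fitted with limma 3.58.1 in R 4.3.3 (lmFit, eBayes with a trend of variance on mean signal), PA against vehicle, Benjamini-Hochberg adjusted, called under 0.05. Exact permutation tests used scipy 1.17.1 in Python 3.11.15. The fit was tested on simulated data. Probe sets were named through the platform annotation and brought to current symbols by gene identifier for 13544 of 13647 probe sets with 1 gene; 402 with several genes were not used for naming. No position is given, as the annotation names no genome build, and no sequence was available in the sources used here. The methods' t-test took log2 signals at p under 0.05 with ratios over 1.5 or under 0.67. Named are all members and, of the pathway and nuclear receptor lists, called genes and up to 4 of each role with the smallest p. Marker genes, vas, Hr78 and synthesis genes outside that rule were named as members of their list. Members and lists were chosen with earlier results of these data known. Alternatives were other scalings, offsets, signal filters, variance models, array weights, a block for the sample number, the methods' t-test and leaving out each array.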

Additional observations from a re-analysis of the deposited data

How the results depend on the processing

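The directions of EcR, usp, ftz-f1 and the 3 bright probe sets of Hr39 were the same under every alternative. Of the 18 probe sets, 0 were called higher under any alternative. The count called lower, 1 as deposited, was 0 after quantile normalization, with cyclic loess, with centring on the 75th percentile, without a trend and by both forms of the methods' t-test, was 2 with centring on the median and 3 among the upper 50% or 75% of mean signal, and lay between 0 and 2 without 1 array (0 without PA replicate 2, vehicle replicate 1 or vehicle replicate 2). Low signals (at most 55.1) left 95% intervals of 0.64 to 2.24 to each side for Eip78C, Hr3, Hr4, 4 of the br probe sets and 1 of Hr39.

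The numbers 1 to 3 of the samples are not stated to pair them, and deviations of arrays with the same number correlated by -0.002 to 0.019 across probe sets, against -0.017 to 0.018 for different numbers. With the number as a replicate block, 2 of the 18 were called lower (Hr39 1630002_s_at at a limma adjusted p of 0.013 joined 1631402_s_at), 386 and 557 of all probe sets were called higher and lower, and 2 and 3 of the pathway genes.

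Over all probe sets, the counts higher and lower, 429 and 529 as deposited, were 58 and 350 with centring on the median, 988 and 211 with centring on the 75th percentile, 238 and 266 after quantile normalization, 248 and 269 with cyclic loess, 270 and 383 with 16 added before the log2, 225 and 314 with 64 added, 582 and 729 among the upper 50% and 497 and 619 among the upper 75% of mean signal, 7 and 0 without a trend, 354 and 231 by the methods' t-test and fold limits, and 29 and 9 by the methods' t-test after Benjamini-Hochberg adjustment. Without 1 array they were 196 to 402 higher and 262 to 412 lower. The pathway genes, 3 higher and 4 lower as deposited, gave 1 and 1 with centring on the median or 64 added, 3 and 1 with the 75th percentile, 2 and 1 after quantile normalization, with cyclic loess or 16 added, 3 and 6 or 3 and 5 in the upper 50% or 75%, 0 and 0 without a trend or by the methods' t-test and fold limits, 1 and 0 after its adjustment, and 1 to 3 in both directions without 1 array.

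Log2 fold changes that changed sign were those of br 1629683_at (0.037 with the 75th percentile, 0.012 and 0.019 with 16 and 64 added, -0.40 to 0.56 without 1 array), br 1635691_at (0.0093 with the 75th percentile, 0.023 after quantile normalization, -0.16 to 0.020 without 1 array) and the mean of all br probe sets (0.13, against -0.07 for the brightest). E23 had -0.0084 and Hnf4 -0.021 with centring on the median, Hsc70-4 had -0.027 after quantile normalization and -0.0084 with cyclic loess, and Met had 0.025 and gce 0.0089 with the 75th percentile. Without 1 array the range was -0.46 to 0.97 for br 1637312_a_at, -0.18 to 0.31 for Eip78C, -0.50 to 1.10 for Hr4 1632066_at, -0.24 to 1.40 for Hr4 1632733_at, -0.13 to 0.34 for Hr39 1632845_at, -0.34 to 2.32 for DopEcR, -0.16 to 0.50 for E23, -0.58 to 0.46 for Met and -0.16 to 0.065 for gce. Why these values moved was not tested. Of 868 single values under alternatives, 729 kept direction and side of the threshold, 91 lost a call, 12 gained one and 36 changed sign.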

Other observations

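The 13 other nuclear receptor genes measured gave 0 calls from limma, with a median log2 fold change of 0.02. Over all probe sets, 2.29% were called higher and 2.82% lower. Of the 13, only 6 lay above the median of the mean log2 signal, so the 0 calls do not show that the dimmer genes were unchanged. At an unadjusted p under 0.05 there were 2, ERR and Hr96, both lower with PA, where 9.93% of all probe sets were so, and 0 by the methods' t-test. ERR, the estrogen-related receptor that drives genes of carbohydrate metabolism, had signals of 77.3, 81.2 and 72.6 with PA, against 121.6, 83.5 and 106.9 with vehicle. Its groups did not overlap, but the vehicle arrays were spread widely, and the log2 fold change of -0.42 had an SE of 0.19 (limma adjusted p = 0.27). Hr96, a receptor involved in the response to foreign compounds and in lipid handling, had 493.7, 485 and 484.7 with PA, against 608, 509.9 and 566 with vehicle. The log2 fold change of Hr96 was -0.20 with an SE of 0.07 (adjusted p = 0.132). Hnf4, a receptor tied to fatty acid oxidation, averaged 1050.0 with PA and 1009 with vehicle (adjusted p = 0.69). dsf had a log2 fold change of 1.38 (adjusted p = 0.568), which was 0.15 to 2.09 over the omissions of an array and 0.08 with 64 added before the log2. Hr78 averaged 1027 with PA and 1012 with vehicle (adjusted p = 0.909).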
